A study of Mus musculus with 2 samples.

Results

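The TGF-β pathway genes described here are 10: the ligand gene Tgfb1, the receptor genes Tgfbr1 and Tgfbr2, the signal transducers Smad2, Smad3 and Smad4, the inhibitors Smad7, Ski and Skil, and the target gene Itgae, which encodes CD103. They were chosen by name, and all 10 were found among the 24013 gene symbols of the table. For a symbol listed under more than 1 transcript, the transcript row with the larger average over the libraries stands for the gene. The study sequenced RNA of splenic CD8 T cells from C57BL/6 mice, in 1 library from wild-type animals aged 7 weeks and 1 library from DGK{zeta}-/- animals aged 6 weeks. DGKζ, encoded by Dgkz, is the diacylglycerol kinase that removes the second messenger diacylglycerol downstream of the T cell receptor. Naive CD8 T cells of both genotypes were stimulated for 24 hours with plate-bound antibodies against CD3 and CD28, so neither library represents resting cells. The labels mention no TGF-β added to the culture and do not give the number of animals pooled, their sex, or the exons that were deleted.

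TGF-β1 is secreted in a latent form, and once freed it binds the type II receptor TGFBR2, which recruits and phosphorylates the type I receptor TGFBR1. TGFBR1 phosphorylates SMAD2 and SMAD3, which join SMAD4 and move to the nucleus. In CD8 T cells the pathway is known for restraining proliferation and cytotoxic genes and for inducing CD103, the αE integrin chain that pairs with β7 and binds E-cadherin on epithelial cells.

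With 1 library per genotype, no difference below has a replicate check and no test was made. Counting 1 row per gene, 37211969 reads came from the wild-type and 13464169 from the deficient library. Levels are the deposited normalized counts, which are reads divided by a size factor per library. Folds are ratios of these values, with an exact 95% Clopper-Pearson interval that covers counting error only. Differences are also given as a log2 ratio, log2((deficient + 10)/(wild type + 10)), whose pseudocount of 10 understates the change of low genes. Shares of all genes refer to the 10518 genes whose mean level reached 50 normalized counts. Dgkz itself had 6714 normalized counts in the wild-type and 2591 in the deficient library, a 2.59-fold lower level (2.46 to 2.74). Xist, which marks cells with an inactive X, had 14.0 and 9206, so by this transcript the animals also differed in sex, and genotype, sex and age cannot be told apart in any value below.

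The 10 genes differed little between the libraries, and most were read slightly lower in the deficient one. Their median log2 ratio was -0.22, against 0.055 over all compared genes, and 8 of 10 lay below 0, against 41.8% of all compared genes. All 10 genes had a mean of at least 50. At the 2-fold rule 0 of 10 were called lower and 0 higher, against 1.29% and 1.30% of all compared genes. At a looser 1.5-fold rule, Itgae alone was called lower and 0 were called higher, against 5.07% and 4.53% of all compared genes. The median was -0.09, against 0.066 over all compared genes, after a trend on transcript length and GC content had been removed.

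**Figure D1:**
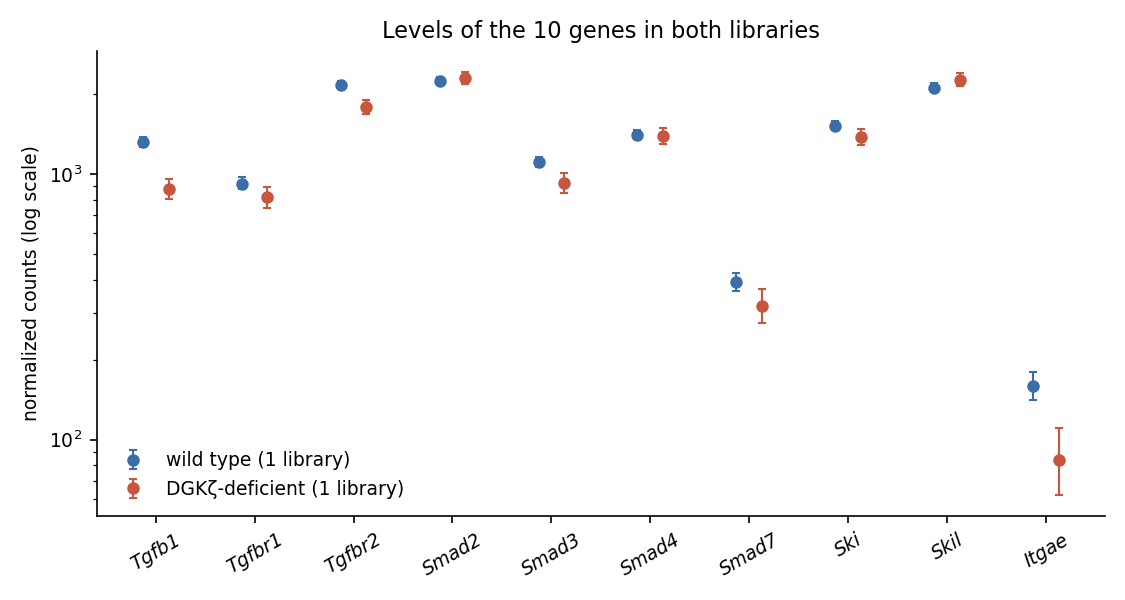
Normalized counts (log axis) of the 10 genes in the wild-type library (blue) and the DGKζ-deficient library (red); each point is 1 library and bars are exact 95% Poisson intervals of its reads. Itgae is the lowest of the genes, at 159 and 84.0, and only the points of Tgfb1 and Itgae are at least about 1.5-fold apart.

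The ligand gene and a receptor gene that were read lower, and Smad3, are the members with an entry in the RefSeq promoter table whose differences were largest. Their 250 bases before the annotated start (build GRCm38.p6) are shown so that the letters bound by SMAD proteins can be looked for. Capitals mark CAGAC, the short SMAD-binding motif, searched on both strands. The Tgfb1 window is chr7:25686752-25687001 on the plus strand, that of Tgfbr2 is chr9:116175364-116175613 on the minus strand, and that of Smad3 is chr9:63757995-63758244 on the minus strand.
Tgfb1: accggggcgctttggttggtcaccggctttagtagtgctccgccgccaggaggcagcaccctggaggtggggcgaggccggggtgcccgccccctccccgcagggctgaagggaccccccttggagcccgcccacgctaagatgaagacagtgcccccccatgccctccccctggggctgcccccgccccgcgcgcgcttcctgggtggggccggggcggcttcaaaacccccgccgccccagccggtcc
Tgfbr2: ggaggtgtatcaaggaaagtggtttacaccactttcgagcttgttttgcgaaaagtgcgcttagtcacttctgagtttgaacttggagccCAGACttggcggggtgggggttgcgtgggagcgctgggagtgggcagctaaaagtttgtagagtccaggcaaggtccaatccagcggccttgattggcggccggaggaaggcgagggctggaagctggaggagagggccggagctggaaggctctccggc
Smad3: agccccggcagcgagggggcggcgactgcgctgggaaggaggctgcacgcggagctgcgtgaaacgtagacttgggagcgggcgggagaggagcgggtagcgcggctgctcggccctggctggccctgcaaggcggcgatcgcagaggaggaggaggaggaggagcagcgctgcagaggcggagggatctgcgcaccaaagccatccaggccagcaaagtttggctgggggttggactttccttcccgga
The window of Tgfbr2 held 1 match to CAGAC, from 160 to 156 bases before the start, and those of Tgfb1 and Smad3 held 0. Of 32851 such windows in the table, 42.2% held at least 1 match, so a match in 1 of these 3 windows is near that share. TGTGGT, the core bound by RUNX factors, was in 0 of the 3 windows and in 14.0% of all windows. The AP-1 motif TGANTCA was also in 0 of the 3 and in 6.75% of all windows. None of these matches is a measured binding site. In all, 5 of the 10 genes were matched in the promoter table.

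Tgfb1 encodes the TGF-β isoform that lymphocytes chiefly make. Wild-type cells gave 1315 normalized counts and deficient cells 880, from 2256 and 513 reads. The deficient library was thus lower by 1.5-fold (1.36 to 1.65). Its log2 ratio of -0.57 lay just outside the looser rule, and 5.31% of compared genes had a lower one. It moved to -0.43 once length and GC were accounted for, and to -0.66 at equal library totals. The other isoforms were near the floor of detection. Tgfb2 had 12 and 1 reads, and Tgfb3 had 26 reads in the wild-type and 0 in the deficient library, where 0 reads allow up to 5.14 normalized counts.

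Among the genes that handle the latent ligand, Furin and Itgav differed in opposite directions. Furin, the protease that cleaves the TGF-β1 precursor, went from 1199 normalized counts in the wild type to 1741, a 1.45-fold higher level (1.34 to 1.57). Itgav, the αv chain of integrins that free the active ligand, was read at 1196 and 888, 1.35-fold lower (1.22 to 1.49). Lrrc32, encoding GARP, which holds latent TGF-β1 on the cell surface, had a log2 ratio of 0.45 at 161 and 223. Ltbp3, a latent TGF-β binding protein, had a log2 ratio of -0.36, with an interval of its fold that spans 1. The 13 genes listed for ligands and activation had 5 compared members with a median log2 ratio of 0.12. At 2-fold 0 of them were called lower and 0 higher, against 1.29% and 1.30% of all compared genes.

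Both receptor genes were read slightly lower in the deficient library. Tgfbr2, which binds the ligand, stood at 2167 and 1789 normalized counts (3716 and 1043 reads), 1.21-fold lower (1.13 to 1.30). Tgfbr1, the kinase that phosphorylates the SMADs, stood at 920 and 815 (1578 and 475 reads), 1.13-fold lower (1.02 to 1.25). Their log2 ratios were -0.28 and -0.17, with 15.2% and 22.1% of compared genes lower. With the length and GC trend removed these became -0.12 and -0.06. Per kilobase of transcript, Tgfbr2 exceeded Tgfbr1 in both libraries, 1.68-fold in the wild type and 1.56-fold in the deficient library.

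Other receptors of the TGF-β superfamily went both ways. Bmpr2, a type II receptor for bone morphogenetic proteins, was read at 300 and 166 normalized counts (log2 ratio -0.82). Bmpr1a, a type I receptor for the same ligands, was read at 68.8 and 123 (log2 ratio 0.76), from 118 and 72 reads. Acvr2a, an activin receptor, and Eng, the co-receptor endoglin, had log2 ratios of -0.40 and -0.29. Of 12 listed receptors and co-receptors 6 were compared, with a median of -0.29. Below 0 lay 5 of the 6, against 41.8% of all compared genes. At 2-fold 0 were called, against 1.29% lower and 1.30% higher over all compared genes.

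Of the signal transducers, Smad3 was lower while Smad2 and Smad4 were nearly equal in the libraries. Smad3, a transducer that binds DNA directly, stood at 1107 and 924 normalized counts (1898 and 539 reads), a 1.2-fold lower level in the deficient library (1.09 to 1.32). Smad2 stood at 2239 and 2293 (3839 and 1337 reads), a deficient over wild-type fold of 1.02 (0.962 to 1.09). Smad4, the shared partner, stood at 1404 and 1393 (2408 and 812 reads), a fold of 0.992 (0.915 to 1.07). The intervals of Smad2 and Smad4 span 1, and that of Smad3 just overlaps that of Smad4. The log2 ratios were -0.26, 0.03 and -0.01 in the order Smad3, Smad2 and Smad4. That of Smad2 turned to -0.05 at equal library totals and -0.02 after centring on the median of all genes, and became 0.19 once length and GC were accounted for.

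The SMADs of the bone morphogenetic protein branch and the anchor proteins had small differences in both directions. Smad5 had a log2 ratio of -0.37, at 915 and 705 normalized counts, and Smad1 one of 0.01. Appl1, an endosomal adaptor, stood at 0.17, and Zfyve16, an endosomal FYVE-domain protein, at -0.10. Of 8 listed genes 4 were compared, 2 below and 2 above 0, with a median of -0.04. At 2-fold 0 were called, against 1.29% lower and 1.30% higher over all compared genes.

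The inhibitors differed from one another in sign. Smad7, which TGF-β induces and which blocks the receptors in return, stood at 391 and 319 normalized counts (670 and 186 reads), a 1.22-fold lower level in the deficient library (1.04 to 1.45). Ski, a corepressor that binds SMADs in the nucleus, stood at 1513 and 1372 (2595 and 800 reads), 1.1-fold lower (1.02 to 1.2). Its relative Skil, encoding SnoN, stood at 2113 and 2265 (3624 and 1321 reads), with a fold of 1.07 (1.01 to 1.14). The log2 ratios were -0.28 for Smad7, -0.14 for Ski and 0.10 for Skil. That of Ski became 0.00 once this trend was taken out, while that of Skil ranged from 0.01 (equal totals) to 0.25 (trend removed). The intervals of Skil and Ski do not overlap, and Skil exceeded Ski per kilobase 1.15-fold in the wild type and 1.36-fold in the deficient library.

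**Figure D2:**
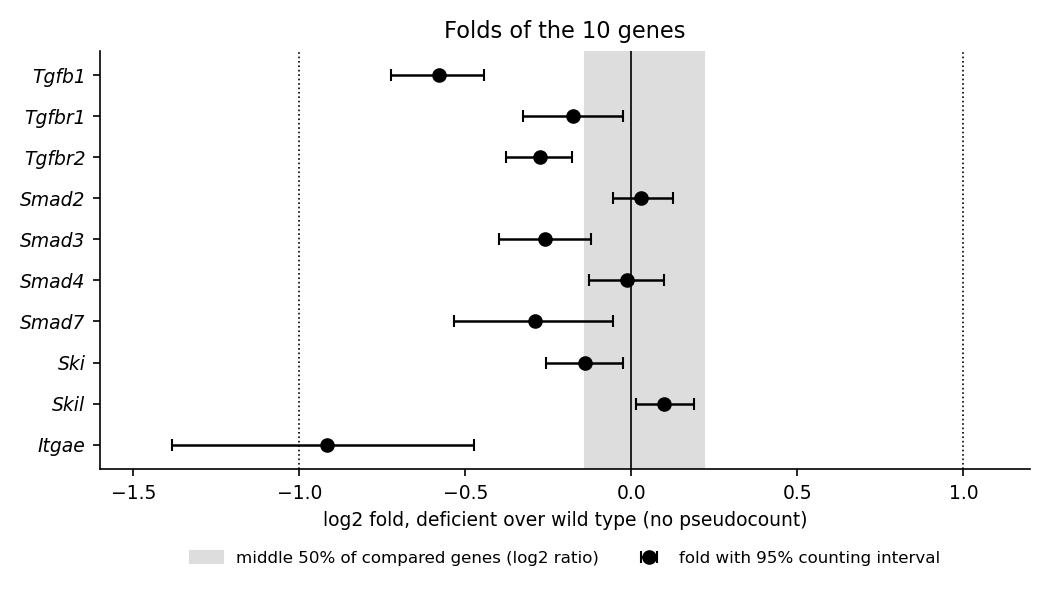
Log2 fold of the deficient over the wild-type library for each gene, without a pseudocount, with its 95% counting interval; the grey band is the middle 50% of log2 ratios over all compared genes (-0.14 to 0.22) and dotted lines mark 2-fold. The intervals of Tgfb1, Tgfbr1, Tgfbr2, Smad3, Smad7, Ski and Itgae lie below 0, that of Skil above 0, and those of Smad2 and Smad4 span 0.

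Itgae had the largest difference of the 10 and the fewest reads. Wild-type cells gave 159 normalized counts and deficient cells 84.0, from 272 and 49 reads. The deficient library was 1.89-fold lower (1.39 to 2.61), with a log2 ratio of -0.84, and 2.13% of compared genes had a lower one. At this level large ratios are common, as 12.4% of genes with a mean between 50 and 200 were at least 1.5-fold lower. The call depends on the transcript row. The row NM_172944 is the higher one, and NM_008399 held 262 and 38 reads, or 153 and 65.2 normalized counts. That row was 2.34-fold lower (1.66 to 3.39) with a log2 ratio of -1.11, past the 2-fold rule. The rows differ by 10 reads in the wild-type and 11 in the deficient library, and the intervals of their folds overlap. Gsg2, the gene of the mitotic kinase haspin, lies antisense inside an Itgae intron and was read at 871 and 909 normalized counts. Whether its reads entered the counts of Itgae was not tested, as the annotation used for counting is not given.

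The β7 chain that CD103 needs was far more abundant than Itgae and also lower. Itgb7 had 2712 normalized counts in the wild type and 1955 in the deficient library, a 1.39-fold lower level (1.30 to 1.48). Per kilobase of transcript it exceeded Itgae 24.5-fold in the wild type and 33.3-fold in the deficient library. The latter ratio rests on 49 Itgae reads, or 21.9 normalized counts per kilobase (16.2 to 28.9 by counting error). Whether the ratios differ between the libraries was not tested. Runx3, a transcription factor of CD8 T cells that supports CD103 expression, stood at 841 and 681, 1.23-fold lower (1.10 to 1.38).

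Levels per kilobase, from the longest matched GENCODE transcript, ordered the 10 genes similarly in both libraries. In the wild type Tgfb1 was highest at 605 normalized counts per kilobase, followed by Smad4 at 415 and Skil at 315. Smad2 (277), Ski (274) and Tgfbr2 (268) came next with overlapping counting intervals, then Smad3 (217), Tgfbr1 (160), Smad7 (91.3) and Itgae (41.2). In the deficient library Smad4 (412) and Tgfb1 (405) could no longer be separated by counting error, so the ligand gene was not ahead there. Skil followed at 337, ahead of Smad2 (283), Ski (248), Tgfbr2 (221), Smad3 (182), Tgfbr1 (142), Smad7 (74.6) and Itgae (21.9). There the interval of Ski overlaps that of Tgfbr2. The place of Smad2 depends on the transcript, since its rows have nearly the same reads but matched lengths of 2410 and 8089 bases. The shorter length belongs to the row that stands for Smad2 here, and the longer one to its other row. With the shorter length Smad2 would stand at 929 and 951 and be the highest in both libraries.

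Counting error alone does not cover the small differences of most of the 10 genes, but that holds for many genes at this depth. The interval of the fold lay wholly below 1 for 7 of the 10, against 21.7% of all compared genes. It lay wholly above 1 for 1 of 10, Skil, against 35.8%, and spanned 1 for 2 of 10. In the distribution of all compared genes 6 of the 10 fell below the lower quartile of -0.14 and 4 between the quartiles. Without Tgfb1 and Itgae, the other 8 genes had a median log2 ratio of -0.16. The authors' deposited table gives log2 fold changes from -0.39 for Tgfb1 to 0.08 for Skil over the rows used here, with -0.33 for Itgae. The adjusted p in the authors' deposited table is 0.999 for each of them and also for Dgkz, in a comparison of 1 library with 1 library. There the fold change of Dgkz is -0.20, smaller than that of Tgfb1, so its sizes were not used for ranking.

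**Figure D3:**
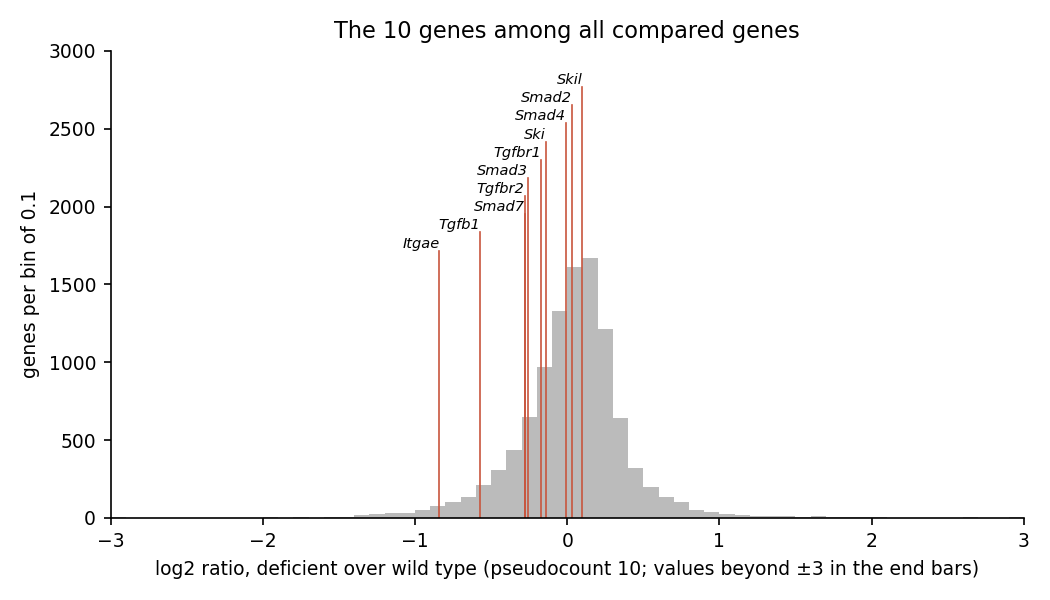
Number of compared genes per bin of log2 ratio (grey) with the 10 genes drawn as red lines. Itgae (-0.84) and Tgfb1 (-0.57) stand in the lower tail, and the other lines fall between -0.28 and 0.10, mostly left of the peak.

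In the wider pathway, the nuclear partners of the SMADs leaned lower and the turnover genes did not. Over 73 other pathway genes, 54 were compared, with a median log2 ratio of -0.07. Of these 1 was called 2-fold lower and 0 higher, against 1.29% and 1.30% of all compared genes. Of the 54, 30 lay below and 24 above 0, while 41.8% of all compared genes lay below 0. Crebbp and Ep300, the acetyltransferases that SMADs recruit as coactivators, had log2 ratios of -0.72 and -0.43. Tgif1, a corepressor of SMAD2 and itself a TGF-β target, stood at 729 and 1197, a 1.64-fold higher level (1.49 to 1.8). The 13 compared nuclear partners had a median of -0.28, with 11 below 0.

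The 16 turnover and feedback genes had a median log2 ratio of 0.06, with 6 below and 10 above 0, while 41.8% of all compared genes lay below 0. At 2-fold 0 of the 16 were called, against 1.29% lower and 1.30% higher over all compared genes. Rnf111, the ubiquitin ligase Arkadia that degrades SnoN, Ski and SMAD7, stood at -0.39, and Ppm1a, a phosphatase that acts on SMAD2 and SMAD3, at 0.35. Usp11, a deubiquitinase, stood at -0.23, as did Ldlrad4, a feedback inhibitor. The 10 genes of the SMAD-independent arm had a median of 0.04 and 0 called, beside the same shares of all compared genes. Traf6 and Tab2, which couple the receptors to the kinase TAK1, stood at 0.43 and 0.37, and the phosphatase subunit genes Ppp2r2a and Ppp2ca at -0.33 and 0.28.

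Genes that TGF-β is known to induce showed no common direction. Of 15 listed 13 were compared, 6 below and 7 above 0, with a median log2 ratio of 0.10, while 41.8% of all compared genes lay below 0. Of these 2 were called 2-fold higher and 0 lower, against 1.30% and 1.29% of all compared genes. Cdkn1a, the cell cycle inhibitor p21, which p53 also induces, was among them, at 43.1 and 111 normalized counts, a 2.58-fold higher level (1.82 to 3.65) from 74 and 65 reads. Itgae and Tgif1, the largest differences among the uncalled members, went in opposite directions. Of the 13 listed genes that TGF-β is known to repress in T cells, 11 were compared with a median of 0.06. Il2 and Ifng were called higher, at log2 ratios of 2.90 and 1.71, and 0 were called lower, against 1.30% and 1.29% of all compared genes. Eomes and Gzmb stood at 0.95 and 0.77, and Prf1 at -0.34. Of the 11, 7 lay above 0 and 4 below, while 41.8% of all compared genes lay below 0.

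The list of CD103 partners and tissue-residency genes had a median log2 ratio of -0.47 over 11 compared members, with 3 called lower and 0 higher, against 1.29% and 1.30% of all compared genes. At the looser 1.5-fold rule 3 were lower and 3 higher, against 5.07% and 4.53% of all compared genes. The higher ones were Bhlhe40, Cd69 and Itgb1, with log2 ratios of 0.86, 0.70 and 0.63. The called genes were Ccr9, the gut-homing receptor, and the circulation genes Klf2 and S1pr1, which are known to be low in resident cells. Bhlhe40 is a transcription factor of resident cells, and Cd69 opposes S1PR1 at the cell surface. Itgae and S1pr1, which resident cells express in opposite ways, were thus both lower in the deficient library.

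**Figure D4:**
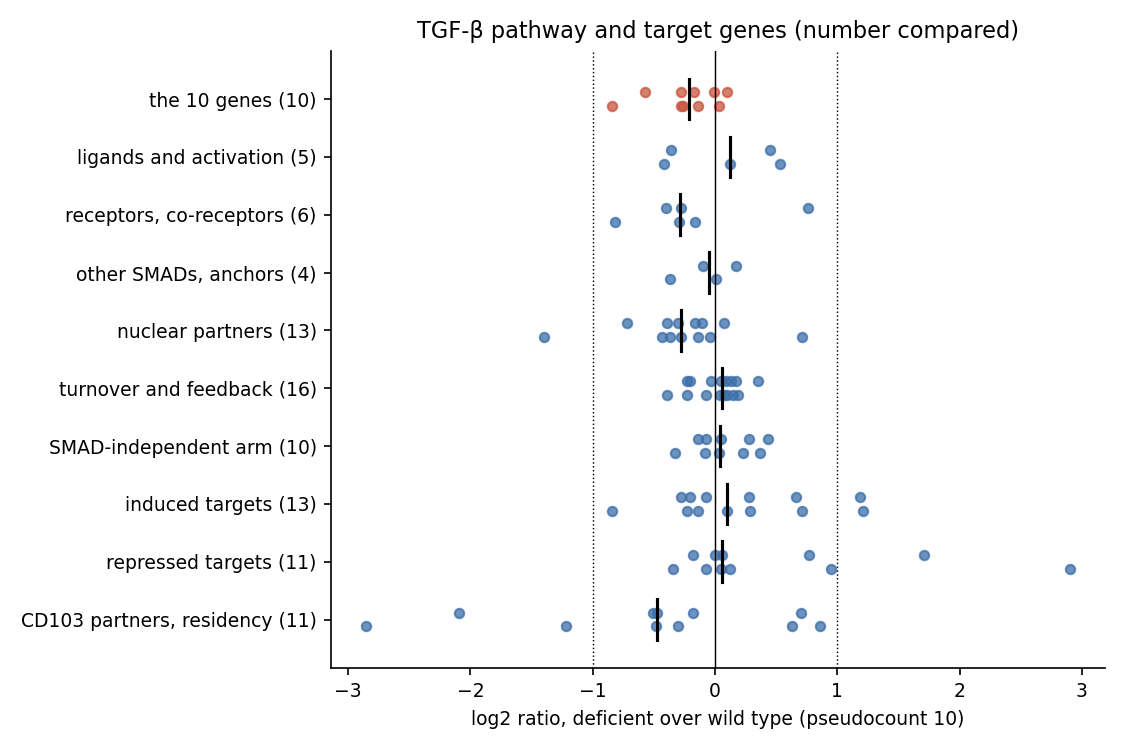
Log2 ratio of each compared gene of the pathway, target and residency lists (points), with the median of each list as a black bar; red points are the 10 genes and dotted lines mark 2-fold. The 10 genes spread from -0.84 to 0.10, and the residency list has the lowest median, -0.47.

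The libraries expressed the defining genes of CD8 T cells, with Cd8a at 13090 and 8455 normalized counts, and Cd3e at 2439 and 1744. These were lower in the deficient library by 1.55-fold (1.5 to 1.6) and 1.40-fold (1.31 to 1.5). Cd3g, at 4767 and 2603, had the largest difference among the CD8 T cell markers, 1.83-fold lower (1.73 to 1.94). At the 1.5-fold rule 2 of the 8 markers were lower and 0 higher, against 5.07% and 4.53% of all compared genes. Of the 8 CD8 T cell markers 5 lay below 0 and 3 above, Cd2, Cd5 and Lck, with folds of 1.22 (1.16 to 1.29), 1.17 (1.14 to 1.2) and 1.15 (1.12 to 1.19), and the median log2 ratio was -0.24. Other cells of the spleen also express Tgfb1 or Itgae. The 11 B cell markers summed to 3184 and 2338 normalized counts, and all 9 compared members lay below 0, as did 41.8% of all compared genes. Of the CD4 T cell markers, Cd4 stood at 171 and 53.2. The 7 regulatory T cell markers summed to 14956 and 19882, mostly Il2ra at 10846 and 14174, which activated CD8 T cells share. Of these 7 markers 4 lay above 0, among them Foxp3 at 262 and 321, and 3 below, Ikzf2, Ikzf4 and Nt5e, with log2 ratios of -0.40, -0.24 and -0.31. The 8 dendritic cell markers summed to 125 and 516, mostly Batf3, which activated T cells express. Of the low markers of that list, Itgax stood at 15.7 and 6.86, Xcr1 at 19.2 and 66.9, and Zbtb46 at 18.1 and 34.3. The 8 platelet and erythroid markers summed to 131 and 92.6, with 0 of 8 compared and Pf4 at 1 and 0 reads. The 9 listed markers of NK and innate-like cells summed to 4120 and 4363. Most of this was Nkg7, at 2163 and 1734, and Eomes, at 956 and 1861. Eomes is also on the list of genes that TGF-β represses in T cells. Members went in both directions, as Klrd1 stood at 395 and 134, and Ncr1 had only 7 and 0 reads. The 8 myeloid markers in the table summed to 273 and 269, with Mpeg1 higher at 127 and 185, Cd68 at 93.9 and 70.3, and Itgam at 27 and 1 reads. The 7 stromal markers summed to 1101 and 737, mostly Pecam1. The part of other cell types in the values of the 10 genes was not tested, and fewer cells of a type cannot be told apart from less RNA per cell.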

How the data were processed

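RNA was sequenced from 2 libraries, 1 per genotype, made with the NEBNext Ultra RNA kit per the labels' protocols. The submitters' processing notes list STAR (version 2), DESeq and the build mm9. Which program counted the reads, and on which annotation, is not given in the sources used here. Deposited by the authors were normalized counts per RefSeq transcript row, a signal equal to reads divided by 1 size factor per library. Whole reads were recovered, as dividing by the smallest non-zero value of a library gave a whole number for 100% of values (relative tolerance 0.0001). A single read was worth 0.583 (wild type) and 1.71 (deficient) normalized counts. The authors also deposited a table of log2 fold changes, p-values and a test score, quoted only by name, the score not at all. Of 33018 rows, 1 with shifted values was left out.

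Log2 ratios, intervals and counts were computed in Python 3.11.15 with scipy 1.17.1 and tested on simulated data. edgeR has no residual degrees of freedom with 1 library per group, so no count test was run. Reads of 1 gene are shared by its transcript rows, so the row with the highest mean was used. Lengths came from GENCODE M21 transcripts, matched by RefSeq accession for 99.0% of compared genes. NM_172944 was not matched, so Itgae took the length of NM_008399. Promoter windows are from RefSeq, build GRCm38.p6, and no coordinates were converted.

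The 10 genes and all lists were chosen with earlier results of these data known. The genes named are the 10, Dgkz, Itgb7, Runx3 and, in each pathway or target list, every gene past 2-fold, filled up to 4 by the largest absolute log2 ratio. Defining cell markers were also named. Results for a few genes that this rule selects are left out here. Tgfb2, Tgfb3, Gsg2, Xist, Prf1, Cd69, Itgb1, Cd8a and the markers Cd3g, Cd2, Cd5, Lck, Il2ra, Ikzf2, Ikzf4, Nt5e, Batf3, Xcr1, Zbtb46, Klrd1, Nkg7, Mpeg1, Cd68 and Pecam1 were named after their values were seen. The alternatives were other pseudocounts, minimum levels, scalings and transcript rows, and removal of a length and GC trend.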

Additional observations from a re-analysis of the deposited data

How the results depend on the processing

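Under 9 alternatives the median log2 ratio of the 10 genes stayed below 0, from -0.30 (equal totals) to -0.09 (length and GC trend removed). The median over all compared genes moved as well, from 0.055 to -0.033 at equal totals and to 0.066 with the trend removed. After median-centring it is 0 by construction, beside -0.27 for the 10 genes. With no minimum level the 10 genes had -0.22 against -0.082 over all genes, a smaller gap than in the main setting. That of the other pathway genes ranged from -0.16 (equal totals) to 0.01 (trend removed). The count of genes at least 1.5-fold lower was 1. It became 0 at a minimum mean of 200, which leaves Itgae out, and 2 (Itgae and Tgfb1) at equal totals and after median-centring. The share of all compared genes called this way also moved. It was 5.07% in the main setting, 3.54% at a minimum mean of 200, 6.72% at equal totals and 6.09% after median-centring. The count at least 2-fold lower was 0 and became 1 (Itgae) with the sum of transcript rows and with the row of lowest mean. The rows of Itgae hold nearly the same reads, so their sum counts reads repeatedly and lessens the effect of the pseudocount. With the sum the log2 ratio of Itgae was -1.01, just past the rule. No gene was called higher under any of the 9. Tgfb1, Tgfbr1, Tgfbr2, Smad3, Smad4, Smad7 and Itgae were below 0 and Skil above 0 under all 9, while Smad2 was above 0 under 7 and Ski below 0 under 8. Itgae ranged from -1.11 to -0.64. A pseudocount of 1 or 50 changed no call. Why values moved with the length and GC trend was not tested. No paired analysis was possible because each genotype has 1 library. Depth limits Itgae most, with 49 reads in the deficient library. No result could be recomputed without a library.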
